A study of Mus musculus with 12 samples.

Results

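The 9 genes described here encode secreted factors and contact molecules through which bone marrow macrophages can support red cell precursors (Igf1, Kitl, Hgf, Bmp2, Tgfb1, Igfbp4, Maea and Palld), together with the membrane skeleton adaptor Epb41l3. They are 9 of the 18467 genes in the count table and were taken by symbol. The set was chosen by the role of its genes, with their measured difference between the macrophage populations already known, so that difference is described below with no test. The effect of metastasis was tested.

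The libraries came from bone marrow of female Albino B6 mice, a C57BL/6 strain that lacks coat pigment. Metastasis was produced by injecting E0771 cells, a mouse mammary carcinoma line, into the caudal artery at 8 weeks of age, and healthy mice served as controls. The age of the controls and the time from injection to collection are not given in the sources used here. Femurs and tibias were flushed, red cells were lysed, and 2 populations were sorted from single live cells. General macrophages carried CD11b and F4/80. The second sort, called niche macrophages, took cells with VCAM1, CD163 and CCR3 on their surface. In the titles of the libraries both sorts bear the word general, and the name niche macrophages comes from the study's design text. The sort labels name neither CD11b nor F4/80 for them. The 4 groups are general macrophages from normal marrow, general macrophages from metastatic marrow, niche macrophages from normal marrow and niche macrophages from metastatic marrow. Each group held 3 libraries from different mice, sequenced after depletion of ribosomal RNA. The niche normal libraries carry numbers in the table that do not match those in their titles, and they are called A, B and C.

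An erythroblastic island is a central macrophage surrounded by maturing erythroblasts, which it holds through adhesion molecules, feeds with growth factors and clears of expelled nuclei. IGF1 and KIT ligand act on erythroid progenitors through the receptors IGF1R and KIT. MAEA is an attachment protein of macrophages and erythroblasts and a subunit of the CTLH ubiquitin ligase, and palladin organises actin fibres. TGF-beta and BMP ligands signal through paired serine kinase receptors to SMAD proteins, and HGF signals through MET.

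Total counts ranged from 13687957 in niche normal A to 30332442 in general metastatic 1. A count of 3, taken as the floor of detection, equalled 0.109 to 0.243 CPM, the counts scaled to library size and TMM factors. The genes of the niche antigens had higher mean levels in that sort. Vcam1 averaged 2161 and 1166 CPM in niche macrophages from normal and metastatic marrow against 63.4 and 82.4 CPM in general macrophages, Cd163 averaged 795 against 10.7 CPM in normal marrow, and Ccr3 averaged 551 and 201 against 11.5 and 17.3 CPM. Itgam, which encodes CD11b, averaged 415 CPM in the niche sort of normal marrow against 757 CPM in the general sort, with no overlap (edgeR adjusted p = 0.0983), and the sorts overlapped in metastatic marrow, at 421 against 531 CPM. Adgre1, which encodes F4/80, was lower in the general sort that it defined, at 123 and 84.0 CPM against 480.2 and 190.0 CPM. The summed level of 10 macrophage markers was 264 to 355 CPM in general normal, 178 to 326 in general metastatic, 1510.2 to 2287 in niche normal and 677 to 1340.1 in niche metastatic libraries. All 10 were above the floor in at least 1 library of every group. Neutrophil markers summed to 21212 to 22289 CPM in general normal and 10579 to 13679 CPM in niche normal libraries, and monocyte markers to 13263 to 14070.2 and 5527 to 6684 CPM. In metastatic marrow the neutrophil sums were 15557 to 26029 CPM in general and 12563 to 13031 CPM in niche libraries, and the monocyte sums were 17843 to 18833 and 8847 to 11348 CPM. Erythroid markers summed to 12.7 to 106 and 71.3 to 106 CPM in general normal and metastatic libraries and to 685 to 1151 and 546 to 1562 CPM in niche normal and metastatic libraries. B and plasma cell markers were at 161 to 265 and 97.2 to 127 CPM in the general and at 1242 to 2317 and 1096 to 3925 CPM in the niche sort. The sums of 10 measured stromal and endothelial markers, cells that also make several of these factors, were at most 25.3, 5.00, 50.2 and 32.6 CPM in the same order of groups. Cdh5, an endothelial marker, was at the floor in every library, and Lepr and Col1a2 were so in 3 of the 4 groups, all but niche metastatic. The part of these other cells in the results was not tested. In bulk libraries, fewer cells of a type and less RNA per cell cannot be told apart.

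The promoters of Epb41l3, Hgf and Tgfb1 are shown because these are genes of the set whose libraries did not overlap between the normal populations and whose upstream window held no annotated exon. Each sequence is the 250 bases before a RefSeq start on the plus strand of GRCm38.p6, at chr17:69075427-69075676, chr5:16553245-16553494 and chr7:25686752-25687001. RefSeq had 3 entries for Epb41l3, 2 for Hgf and 1 for Tgfb1. The entry of lowest coordinate was used, and other starts were not examined. Capitals mark a match to the PU.1 motif.
Epb41l3: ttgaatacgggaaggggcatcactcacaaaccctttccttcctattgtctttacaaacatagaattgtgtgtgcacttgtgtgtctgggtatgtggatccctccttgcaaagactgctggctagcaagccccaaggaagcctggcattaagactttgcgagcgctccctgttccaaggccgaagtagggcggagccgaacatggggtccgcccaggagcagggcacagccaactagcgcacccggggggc
Hgf: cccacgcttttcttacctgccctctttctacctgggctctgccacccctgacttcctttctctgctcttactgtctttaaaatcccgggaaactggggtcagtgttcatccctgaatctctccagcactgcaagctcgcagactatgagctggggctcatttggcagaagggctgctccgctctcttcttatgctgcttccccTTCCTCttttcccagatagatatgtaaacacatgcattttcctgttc
Tgfb1: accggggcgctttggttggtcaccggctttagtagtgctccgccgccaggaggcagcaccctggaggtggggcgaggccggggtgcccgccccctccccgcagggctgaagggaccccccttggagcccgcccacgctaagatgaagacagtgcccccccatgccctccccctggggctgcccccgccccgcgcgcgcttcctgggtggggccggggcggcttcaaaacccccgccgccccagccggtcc
The G and C content was 56% for Epb41l3, 50.8% for Hgf and 75.2% for Tgfb1, and the number of CpG dinucleotides was 9, 4 and 21. Motifs for PU.1 (GAGGAA), a MAF half-site (TGCTGA), AP-1 (TGANTCA) and C/EBP (TTGCNNAA) were searched on both strands. The Hgf window held 1 PU.1 match, on the minus strand, and the other windows held none of the 4 motifs. Among 32851 RefSeq promoter windows of the same length, 23.3% held the PU.1 motif, 16.1% the MAF half-site, 6.75% the AP-1 motif and 9.56% the C/EBP motif. A match of these letters is a description and not a binding site.

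Igf1, the insulin-like growth factor, was far more abundant in niche than in general macrophages, and its niche level was lower in metastatic marrow. The gene lies at chr10:87858265-87937042 on the plus strand of GRCm38. Its level in general normal libraries was 16.4, 16.2 and 10.1 CPM, and in general metastatic libraries 11.1, 9.40 and 15.4 CPM. In niche normal libraries A, B and C it was 427, 751 and 485 CPM, and in niche metastatic libraries 295, 203 and 187 CPM. Every niche library was above every general library, and every niche metastatic library was below every niche normal library. The group means were 14.3 ± 3.56, 11.95 ± 3.08, 554 ± 173 and 228 ± 58.1 CPM (SD, n = 3 each). The difference between populations was 5.28 ± 0.39 (log2, SE) in normal and 4.25 ± 0.37 in metastatic marrow. The order of levels was niche normal, niche metastatic, general normal and general metastatic, and the libraries of the last 2 groups overlapped. An antisense gene, Igf1os, shares no exon bases with Igf1 and had 0 counts except 45 in 1 niche metastatic library.

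**Figure D1:**
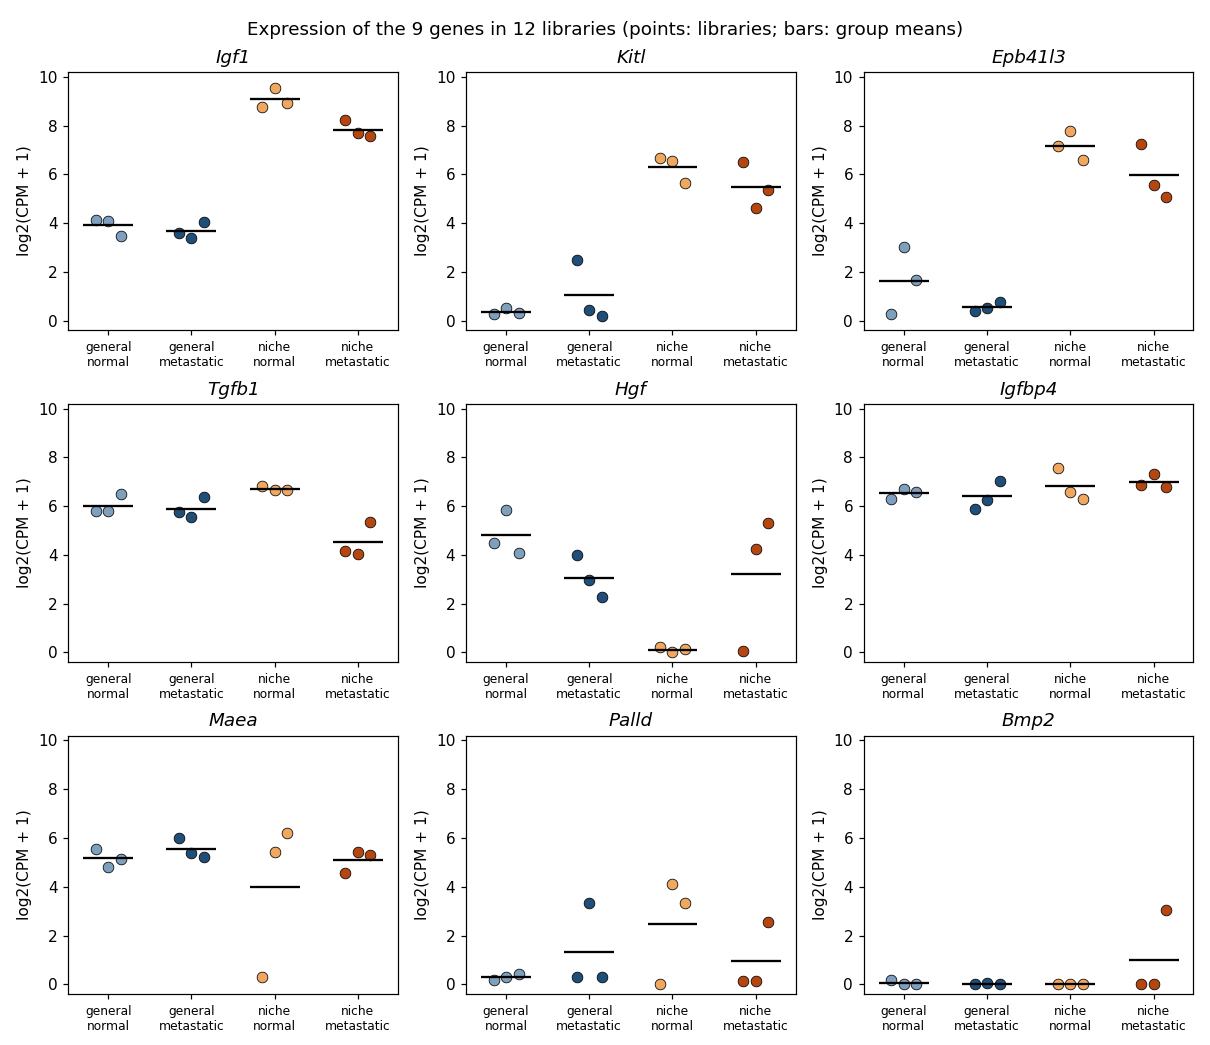
Level of each of the 9 genes in every library, as CPM plus 1 on a log axis, with points for the 3 libraries of each group and a bar for their mean. Igf1 was at 187 to 751 CPM in the niche libraries and at 9.40 to 16.4 CPM in the general libraries, while Maea overlapped across the groups.

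Kitl, the ligand of KIT, and Epb41l3, a membrane skeleton adaptor, had the same order of sorts as Igf1, from a lower base. Kitl (chr10:100015630-100100416, plus strand) was at 0.206, 0.415 and 0.2498 CPM in general normal libraries and at 4.60, 0.362 and 0.146 CPM in general metastatic libraries. In niche macrophages Kitl was at 102, 92.1 and 48.8 CPM in normal marrow and at 90.1, 23.7 and 39.8 CPM in metastatic marrow. The lowest niche library thus exceeded the highest general library, general metastatic 1, which stood apart from its group with 126 counts against 8 and 4. The Kitl difference between populations was 8.09 ± 1.46 (log2, SE) in normal and 4.90 ± 1.25 in metastatic marrow, and the latter became 7.63 without general metastatic 1 and 4.21 without niche metastatic 1. Epb41l3 (chr17:69075683-69289989, plus strand) was at 0.206, 7.06 and 2.15 CPM in general normal and at 0.328, 0.452 and 0.695 CPM in general metastatic libraries. Its niche levels were 142, 221 and 94.2 CPM in normal and 149, 46.8 and 32.5 CPM in metastatic marrow, all above the general libraries. The Epb41l3 difference was 5.60 ± 1.03 in normal and 7.25 ± 1.12 in metastatic marrow, and these became 6.99 without general normal 2 and 6.31 without niche metastatic 1. An antisense gene within Epb41l3, 2410021H03Rik, shares no exon bases with it and had up to 714 counts in niche normal libraries and at most 3 in the other groups. The use of strand in counting is not given in the sources used here.

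Tgfb1 (chr7:25687002-25705077, plus strand) encodes a cytokine that restrains proliferation and favours differentiation of many blood progenitors. Its position between the sorts was opposite in normal and metastatic marrow. General libraries had 54.3, 54.6 and 88.8 CPM in normal and 53.2, 45.4 and 81.4 CPM in metastatic marrow. Niche libraries had 113, 99.2 and 99.0 CPM in normal and 16.8, 15.3 and 39.8 CPM in metastatic marrow. Niche macrophages were therefore above all general libraries in normal marrow, by 0.65 ± 0.56 (log2, SE), and below all of them in metastatic marrow, at -1.32 ± 0.56.

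Hgf (chr5:16553495-16620152, plus strand), hepatocyte growth factor, was the only member that was lower in every niche than in every general library of normal marrow. General normal libraries had 21.5, 57.0 and 15.8 CPM, and niche normal libraries had 2, 0 and 2 counts. Measured against the floor of 3 counts per library, the general normal mean of 31.4 ± 22.3 CPM (SD, n = 3) was at least 174-fold higher, or at least 103.1-fold without general normal 2. General metastatic libraries had 14.7, 6.78 and 3.84 CPM. The niche metastatic libraries did not behave as a group, with 0.0505, 18.2 and 39.1 CPM, or 1, 416 and 1057 counts. Hgf shares 484 exon bases on the same strand with Gm43489, which had 0 to 435 counts in niche normal and 1 to 370 counts in general normal libraries. It had 0 counts in general metastatic and 0 to 2 in niche metastatic libraries. The Hgf counts are uncertain where reads could be split, which holds for all Hgf comparisons below.

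Igfbp4, Maea and Palld did not separate the populations. Igfbp4 (chr11:99041244-99054392, plus strand), which binds IGF1 and limits its access to the receptor, averaged 92.2 ± 13.6 CPM in general normal, 88.2 ± 37.4 in general metastatic, 120.0 ± 61.2 in niche normal and 127 ± 25.4 in niche metastatic libraries (SD, n = 3 each). All neighbouring groups overlapped in this order. Maea (chr5:33335509-33373296, plus strand) was at 46.2, 27.2 and 34.3 CPM in general normal, 62.2, 41.0 and 36.6 in general metastatic, and 22.6, 41.7 and 37.9 in niche metastatic libraries. Niche normal A had 3 counts of Maea, while B and C had 852 and 1467. Palld (chr8:61511433-61902690, minus strand) exceeded 100 counts in 4 libraries only, with 204 counts in general metastatic 2, 328 and 183 in niche normal B and C, and 132 in niche metastatic 3, against 7 or fewer elsewhere. Bmp2 (chr2:133552159-133562885, plus strand), a BMP ligand, had 195 counts in niche metastatic 3 and at most 2 in each of the other 11 libraries, and was left out of the test by the filter on low counts.

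Such jumps from near 0 to over 100 counts within a group were common in these libraries. Among genes with at least 100 counts in 1 library of a group, 27.8% in general normal, 18.8% in general metastatic, 31.5% in niche normal and 28.6% in niche metastatic had another library of that group at 3 counts or fewer. Among the members, 6, 7, 7 and 9 reached 100 counts in a library of these groups, in the same order. Of these, 1, 0, 2 and 3 had another library of the group at 3 counts or fewer. Epb41l3 was the case in general normal, Maea and Palld in niche normal, and Palld, Hgf and Bmp2 in niche metastatic libraries.

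**Figure D2:**
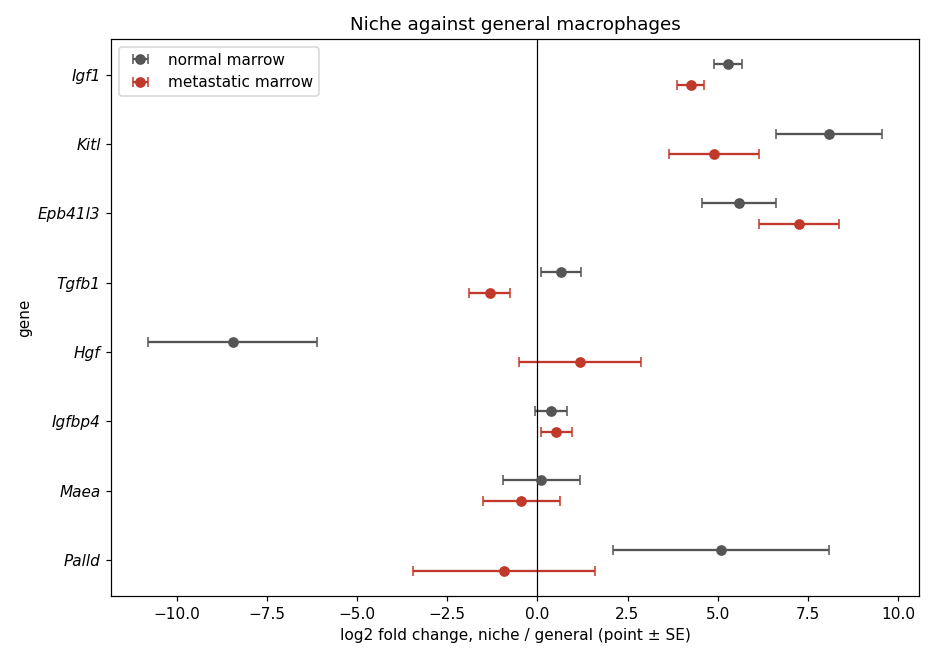
Difference between niche and general macrophages for the 8 genes that passed the filter, as log2 fold change with its SE, in normal marrow (grey) and metastatic marrow (red). Igf1, Kitl and Epb41l3 were to the right in both marrows, at 4.25 to 8.09, and Tgfb1 changed sides, from 0.65 to -1.32. The Hgf value in normal marrow rests on a group at the detection floor and is no bound.

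Counted by libraries that did not overlap, 4 of the 9 genes were higher in niche than in general macrophages of normal marrow (Igf1, Kitl, Epb41l3 and Tgfb1) and 1 was lower (Hgf). Over all 12882 tested genes, 18.8% did not overlap, 10% being higher and 8.78% lower. In metastatic marrow 3 were higher (Igf1, Kitl and Epb41l3) and 1 lower (Tgfb1), against 8.34% and 8.85% of all tested genes, or 17.2% in either direction. These contrasts took part in the choice of the genes, and nothing is read from the counts. The 2 comparisons of populations use separate libraries. Per kilobase of exon, which allows levels of different genes to be compared, Igf1 had the highest niche normal level of the set at 55.9 CPM per kb, followed by Igfbp4 at 27.2, Tgfb1 at 20.6, Maea at 14.7, Kitl at 13.7 and Epb41l3 at 12.8. In niche metastatic macrophages Igfbp4 was at 28.8 and Igf1 at 23.1 CPM per kb, and in general normal macrophages Igfbp4 led at 20.9 with Igf1 at 1.44 CPM per kb.

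Metastasis was examined within each population by edgeR's quasi-likelihood test with Benjamini-Hochberg adjustment over all 12882 tested genes. None of the 8 tested genes passed an adjusted p of 0.05 in general macrophages, where 0.0155% of all tested genes were called, or in niche macrophages, where 0.00776% were called. At an unadjusted p under 0.05 the test gave 660 genes in general and 1642 in niche macrophages. DESeq2 called 0 of the members in general macrophages, where it called 1.19% of all genes to which it gave an adjusted p. It called 3 members in niche macrophages, where it called 8.06% of those genes.

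Igf1 was lower in niche macrophages of metastatic marrow, by -1.28 ± 0.33 (log2, SE), with no overlap between 3 and 3 libraries. Its adjusted p was 0.221 by edgeR and 0.00895 by DESeq2, and 0.130 to 0.536 over the other alternatives. In general macrophages the Igf1 difference was -0.25 ± 0.33 with an edgeR adjusted p of 1.00. The difference between these effects, tested as an interaction, was -1.03 ± 0.47 with an adjusted p of 0.625 by edgeR. The summed macrophage markers had the same direction in niche libraries, with 1510.2 to 2287 CPM in normal and 677 to 1340.1 CPM in metastatic marrow. Monocyte markers had the opposite one, with 5527 to 6684 and 8847 to 11348 CPM. Their part in the Igf1 result was not tested.

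Tgfb1 was lower in niche macrophages of metastatic marrow by -2.11 ± 0.58 (log2, SE), from 104 ± 8.02 to 24.0 ± 13.7 CPM (SD, n = 3), again with no overlap. The adjusted p was 0.258 by edgeR and 0.00331 by DESeq2, and 0.184 to 0.536 over the other alternatives. General macrophages differed by -0.14 ± 0.56 with an edgeR adjusted p of 1.00, from 65.9 ± 19.9 to 60.0 ± 18.9 CPM, and their libraries overlapped. The interaction was -1.98 ± 0.79 with an adjusted p of 0.587 by edgeR, and -2.56 without niche metastatic 3. With Igf1, Tgfb1 made 2 of the 9 genes that were lower without overlap in niche macrophages, and none was higher. Over all tested genes 12.7% did not overlap there, 7.11% being lower and 5.63% higher.

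Hgf was the third gene called by DESeq2 in niche macrophages, with an adjusted p of 7.26e-05 against 0.313 by edgeR and 0.242 to 0.502 over the other alternatives. The niche metastatic mean of 19.1 ± 19.5 CPM was at least 105.5-fold above the floor of the normal group, and 1 of its 3 libraries was itself at the floor. The bound became 50.35-fold without niche metastatic 3 and 158.1-fold without niche metastatic 1. Every general metastatic library was below every general normal library for Hgf, at -1.89 ± 1.73 (log2, SE) with an edgeR adjusted p of 1.00, which became -2.56 without general metastatic 1 and -1.14 without general normal 2. Hgf was the only member without overlap in that comparison, where 12.9% of all tested genes did not overlap, 5.64% being lower and 7.27% higher. The interaction for Hgf had an adjusted p of 0.452 by edgeR and 0.000576 by DESeq2, which called 3.46% of those genes, and 0.327 to 0.673 over the other alternatives. By edgeR 0 of the 8 genes passed the interaction, where 0% of all tested genes were called and 1016 had an unadjusted p under 0.05.

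The other genes showed differences within the spread of their libraries. Kitl differed by 2.53 ± 1.16 (log2, SE) between metastatic and normal general macrophages, with an edgeR adjusted p of 0.944, and by -0.20 without general metastatic 1. In niche macrophages it differed by -0.66 ± 1.06 with an edgeR adjusted p of 0.928, and by -1.35 without niche metastatic 1. Epb41l3 differed by -2.66 ± 0.92 in general macrophages, with an edgeR adjusted p of 0.944, and by -1.27 without general normal 2. Its niche difference was -1.004 ± 0.85 with an edgeR adjusted p of 0.714, and 1 niche metastatic library, at 149 CPM, lay inside the normal range of 94.2 to 221 CPM. Without that library, niche metastatic 1, the Epb41l3 difference was -1.95. Igfbp4 differed by -0.06 ± 0.43 in general and 0.09 ± 0.43 in niche macrophages. Maea differed by 0.38 ± 1.07 and -0.19 ± 1.07, and Palld by 3.70 ± 2.80 and -2.33 ± 2.64. The Maea value in niche macrophages became -0.78 without niche normal A and 0.66 without niche normal C. The Palld value in general macrophages became -0.14 without general metastatic 2. In niche macrophages it became -6.42 without niche metastatic 3 and -1.45 without niche normal B.

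**Figure D3:**
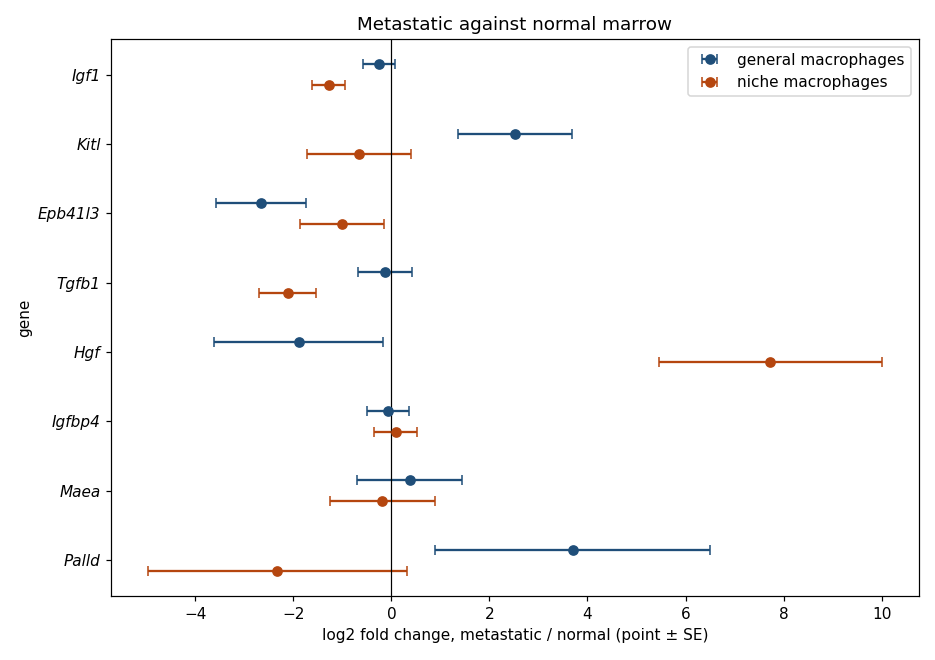
Difference between metastatic and normal marrow for the 8 tested genes, as log2 fold change with its SE, in general and niche macrophages. Igf1 at -1.28 and Tgfb1 at -2.11 were below 0 in niche macrophages and near 0 in general macrophages, and none of the 8 genes passed the edgeR threshold in either population.

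The receptors and partners of these factors were followed in 8 lists with 143 genes, of which 122 were in the table and 93 were tested. In normal marrow 10 of the 93 were higher and 5 lower in niche than in general macrophages by edgeR at an adjusted p of 0.05, where 2.47% of all tested genes were called, 1.5% higher and 0.97% lower. The median difference of the 93 was 0.40 (log2), beside 0.19 over all tested genes. In metastatic marrow 8 were higher and 1 lower, against 0.831% of all tested genes, 0.574% higher and 0.256% lower, with a median of 0.24 beside 0.04. None of the 93 was called for metastasis in either population or for the interaction by edgeR. DESeq2 called 0 of the 88 to which it gave an adjusted p in general macrophages and for the interaction. In niche macrophages it called 4 higher and 5 lower with metastasis, where it called 8.06% of all genes with an adjusted p. The lists were drawn up with the difference between populations known and hold 3 sorting antigens, so their counts, medians and adjusted p values between populations are a description and no independent support.

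Most of the called genes belonged to the list of other island support genes, of which 24 were tested. In normal marrow 9 were called higher in niche macrophages: Mertk, Axl, Adgre1, Vcam1, Cd163, Siglec1, Spic, Maf and Mrc1. Vcam1, Cd163 and Adgre1 encode antigens used in the sorts. Spic, a transcription factor of iron-recycling macrophages, averaged 312 CPM in the niche and 2.03 CPM in the general sort, a difference of 7.24 ± 0.95 (log2, SE, edgeR adjusted p = 0.000153). Mertk, a receptor that clears apoptotic cells and expelled nuclei, was at 2.22 and 296 CPM, at 7.04 ± 0.96 (edgeR adjusted p = 0.000208). Without general normal 3 these differences were 9.08 for Spic and 8.66 for Mertk. Axl, a related receptor, was at 17.9 and 1317 CPM, at 6.20 ± 0.76 (edgeR adjusted p = 7.64e-05). Cd44, an adhesion receptor for hyaluronan, fell by 1.04 ± 0.22 (edgeR adjusted p = 0.0144). In metastatic marrow the 8 called were the same list without Adgre1, whose difference was 1.18 ± 0.33 (edgeR adjusted p = 0.166). Maf, a macrophage transcription factor, reached 259 CPM in the niche and 8.86 CPM in the general sort there, at 4.87 ± 0.42 (edgeR adjusted p = 2.56e-06).

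**Figure D4:**
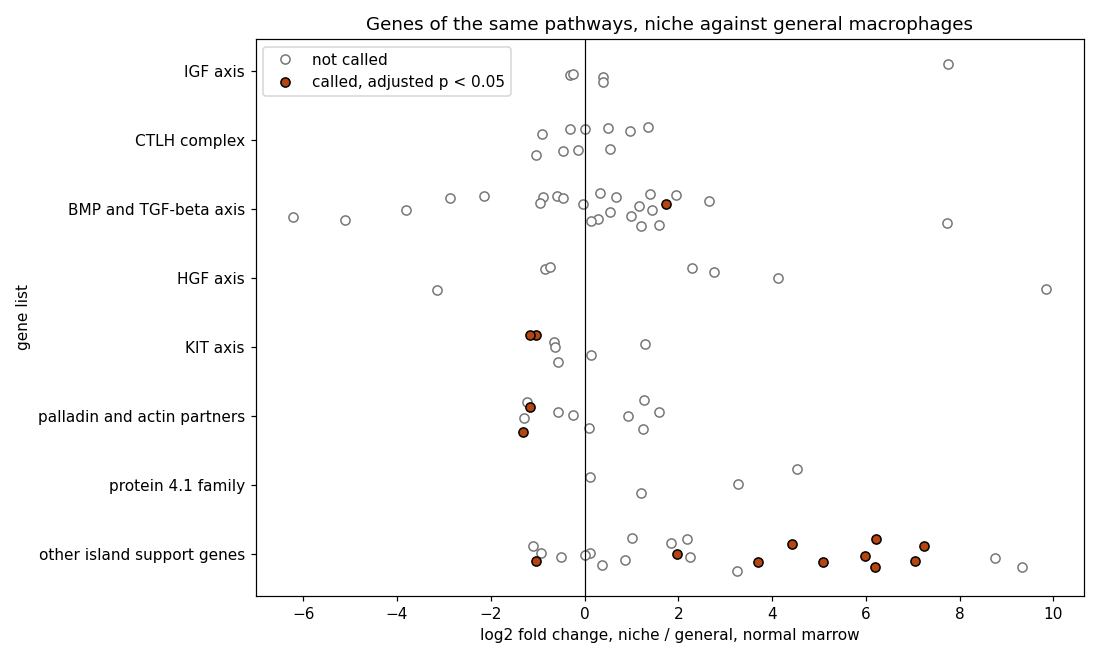
Niche against general macrophages of normal marrow for the tested genes of the 8 lists, each point 1 gene placed by its log2 fold change, with filled points for genes called by edgeR. The called genes on the right were Itgav, at 1.73, and 9 genes of the other island support list, and the 5 called genes on the left were between -1.31 and -1.04.

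By edgeR 0 of the 5 tested genes of the IGF axis were called in any comparison. DESeq2 called Igfbp5 between populations in normal marrow, where it called 1825 genes in all. Igf1r, the receptor of IGF1, was present in all groups, at 423 ± 74.7 CPM in general normal, 369 ± 16.4 in general metastatic, 339 ± 119 in niche normal and 353 ± 16.8 in niche metastatic libraries (SD, n = 3 each). Igfbp5, another IGF binding protein, averaged 42.8 ± 38.2 CPM in niche and 0.194 ± 0.192 CPM in general libraries of normal marrow (SD, n = 3), of which 2 were at or under the floor. The difference of 7.76 ± 2.51 (log2, SE) became 6.76 without niche normal A and 8.90 without general normal 1. It had an adjusted p of 0.128 by edgeR and 6.19e-05 by DESeq2, and 0.0951 to 0.311 over the other alternatives. In the KIT axis Kit itself averaged 54.2 ± 42.1 and 60.1 ± 14.7 CPM in general and 132 ± 5.04 and 136 ± 36.5 CPM in niche macrophages, with edgeR adjusted p values of 0.228 and 0.554. Mmp9, a protease known to release soluble KIT ligand, fell in niche macrophages of both marrows, to -1.17 ± 0.22 (log2, SE) in normal and -1.495 ± 0.22 in metastatic marrow, with edgeR adjusted p values of 0.00579 and 0.000983. Mmp9 is also a granule gene of neutrophils, whose marker sums were lower in the niche libraries, and the part of these cells was not tested. Cbl, a ubiquitin ligase that acts on KIT among other receptors, fell by 1.05 ± 0.20 in normal marrow (edgeR adjusted p = 0.00556).

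In the BMP and TGF-beta list edgeR called 1 of 25 tested genes between populations in normal marrow and 0 in the other comparisons. DESeq2 called 5 between populations in normal marrow (Acvr2a, Acvr2b, Id1, Id2 and Itgav), where it called 1825 genes in all. For metastasis in niche macrophages it called 4 (Acvr2a, Acvrl1, Id1 and Ltbp3), beside 8.06% of all genes with an adjusted p. In the other comparisons it called 0. The share of all genes that DESeq2 called between populations was not computed, so its list counts there are a description. Itgav, the integrin chain that takes part in the activation of latent TGF-beta, rose in niche macrophages of normal marrow from 101 ± 6.93 to 334 ± 76.1 CPM (SD, n = 3), at 1.73 ± 0.31 (log2, SE, edgeR adjusted p = 0.00343). Acvr2a, an activin receptor, was higher without overlap in niche macrophages of metastatic marrow, at 22.4 ± 8.69 CPM, than in those of normal marrow, at 0.489 ± 0.0860 CPM (SD, n = 3), a difference of 5.50 ± 1.73. Its adjusted p was 0.381 by edgeR and 0.000289 by DESeq2, and 0.297 to 0.586 over the other alternatives. In the HGF list none of 7 tested genes was called by edgeR or DESeq2, and Met, the HGF receptor, averaged 54.4, 76.0, 30.5 and 19.1 CPM in general normal, general metastatic, niche normal and niche metastatic libraries. None of the 10 CTLH subunits that work with MAEA was called by edgeR or DESeq2, and Rmnd5a, which had the smallest p value of these subunits between populations in metastatic marrow, differed by 0.74 ± 0.31 (edgeR adjusted p = 0.523). Among 11 tested actin partners of palladin, Svil and Lasp1 fell in niche macrophages of normal marrow, by 1.31 ± 0.26 (edgeR adjusted p = 0.00739) and by 1.16 ± 0.28 (edgeR adjusted p = 0.0304). The Lasp1 call was lost without any one of 5 libraries, general normal 1, 2 or 3 or niche normal A or C, with edgeR adjusted p values of up to 0.135. By edgeR none of the 4 tested genes in the list around Epb41l3 was called (Epb41, Epb41l1, Epb41l2 and Cadm1). Between populations DESeq2 called Cadm1 in normal marrow, and Cadm1, Epb41 and Epb41l1 in metastatic marrow, where it called 480 genes in all. Cadm1, an adhesion molecule whose tail binds proteins of that family, was at 101 CPM in niche and 4.35 CPM in general libraries of normal marrow, with an edgeR adjusted p of 0.0547. It passed without the filter on low counts, without general normal 1 and without niche normal B, at edgeR adjusted p values of 0.0288, 0.0454 and 0.0352, and its adjusted p was 0.000312 by DESeq2.

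The genes most like Igf1 across the 12 libraries, among the 8145 tested genes that averaged 10 CPM or more and by Pearson r of log2(CPM + 1), were Hmox1 (r = 0.987), Vcam1 (0.986), Slc1a3 (0.986), Paqr9 (0.976), Gm44250 (0.976) and Maf (0.975). These points share the split between sorts, the library and its depth, so r is a description. Hmox1, the enzyme that opens the haem ring, was at 61.6 ± 13.3, 57.3 ± 4.88, 1101 ± 267 and 554 ± 243 CPM in general normal, general metastatic, niche normal and niche metastatic libraries (SD, n = 3 each). Slc1a3, a glutamate and aspartate transporter, averaged 0.158, 0.1002, 97.9 and 30.1 CPM in that order. The genes most like Kitl were Slc7a2 (0.988), Sh3pxd2a (0.982) and Gm4951 (0.982), and those most like Epb41l3 were Hpgds (0.976), Kcna2 (0.972) and Fcna (0.970). For Tgfb1 they were Map3k1 (0.952), Pink1 (0.926) and Cep72 (0.900), and for Hgf they were Eml5 (0.949), Jkamp (0.932) and Abca13 (0.919). For Maea they were Ncoa1 (0.981), Arhgap11a (0.976) and Riok1 (0.976). Among the genes most like Palld were Gm45206 (0.949) and Gm42934 (0.888), and Igfbp4 had the lowest values of the set, with Dysf (0.847), Gm50358 (0.844) and Scnn1a (0.826).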

How the data were processed

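Bulk RNA-seq was available for 12 libraries in 4 groups of 3. The authors deposited expected counts per gene, of which 73.9% were whole numbers. The submitters' processing notes name STAR 2.7.3a, Partek, DESeq2 1.40.2, R 4.3.1 and mm10 without saying what each did, and the counting program and its use of strand are not given in the sources used here. The counts were rounded and fitted in edgeR 4.0.16 (R 4.3.3) as 1 mean per group on all 12 libraries, with filterByExpr by group, TMM scaling and Benjamini-Hochberg adjustment over 12882 tested genes of 18467, called at an adjusted p of 0.05. DESeq2 1.42.0, other scalings, no filter, only the 6 libraries of a comparison and each library left out in turn were the alternatives. The fit was also run on simulated counts with planted changes. A pass was required only with a fixed spread and not with the spread of the real genes. The run therefore does not show how many true changes the tests missed.

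The members and lists were chosen with earlier results of these data known. The genes named are the 9 members, the 5 sorting antigens, from each list and comparison up to 4 called genes of largest change averaging 10 CPM or more without overlap (otherwise that of smallest p), and the nearest genes by Pearson r, of which 1 is not reported here; other list genes were chosen after their values were seen. Exon lengths and positions came from GENCODE M21 on GRCm38. Promoters came from the RefSeq table for GRCm38.p6, which matched 7 of the 9 members. Library pairs within a group differed by 143 to 415.5 in chi-square per degree of freedom, so no library was a copy of another. The precision of counts is limited at low levels by the floor of 3 counts.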

Additional observations from a re-analysis of the deposited data

Results flagged for a closer look

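Among the members, the sorting antigens and the list genes picked by call or smallest p, libraries moved in opposite directions under the same contrast for 4 genes. The share of all tested genes with such moves was not counted, so nothing is read from this number. Tgfb1 was higher in every niche than in every general library of normal marrow, at 0.65 (log2), and lower in every niche library of metastatic marrow, at -1.32. The difference between these values did not pass the test of the interaction (edgeR adjusted p = 0.587).

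Itgav was higher in every metastatic than in every normal library of general macrophages, at 0.25, and lower in niche macrophages, at -0.74, with an interaction of -0.99 (edgeR adjusted p = 0.610). Epb41, a membrane skeleton protein, was lower with metastasis in general macrophages, at -0.24, and higher in niche macrophages, at 0.93, with an interaction of 1.16 (edgeR adjusted p = 0.597). Ccr3, which encodes an antigen of the niche sort, was higher with metastasis in general macrophages, at 0.59, and lower in niche macrophages, at -1.46, with an interaction of -2.05 (edgeR adjusted p = 0.452).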

How the results depend on the processing

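DESeq2 gave far more calls than edgeR and was the alternative with the widest effect. For niche against general macrophages it called 1825 genes in normal marrow (318 by edgeR) and 480 in metastatic marrow (107), and of the pathway genes 24 (15) and 16 (9). It gave 88 pathway genes an adjusted p. Its share of all genes was not computed between populations, so nothing is read from the 24 and 16. For metastasis it called 141 genes in general macrophages (2) and 954 in niche macrophages (1), and 410 for the interaction (0). Of the 9 members it called 3 for metastasis in niche macrophages and 1, Hgf, for the interaction, where edgeR called 0. With only the 6 libraries of a comparison, 163 genes were called in normal marrow and 0 for metastasis in niche macrophages. Scaling by library size alone gave 0 calls for metastasis in both populations, RLE scaling gave 0 in niche macrophages, and no filter gave 5 in general and 3 in niche macrophages. The causes were not tested. Library size alone moved the median of all genes for niche against general in metastatic marrow from 0.04 to 0.29 and for metastasis in niche macrophages from -0.17 to 0.06, and the Maea value there from -0.19 to 0.038.

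With each library left out in turn, the calls ranged from 176 to 402 for the populations in normal marrow, with 176, 178 and 184 without general normal 1, 2 and 3, and from 66 to 83 in metastatic marrow, with 66 without niche metastatic 1 and 70 without general metastatic 2. They were 0 to 0 for metastasis in general macrophages, 0 to 66 in niche macrophages (66 without niche normal B, 26 without C, 2 without niche metastatic 1 or 2, 0 without 3), and 0 to 16 for the interaction (16 without niche normal B, 1 without general metastatic 2). Pathway calls ranged from 13 to 17 and from 8 to 10. Member calls stayed at 0 in the 3 tested comparisons. For metastasis in general macrophages the log2 value ranged from -0.20 to 3.06 for Kitl, -0.14 to 4.25 for Palld, -0.47 to 0.16 for Igfbp4, -0.43 to 0.14 for Tgfb1, -1.25 to 3.65 for Igfbp5 and -3.61 to 1.19 for Epb41l1. In niche macrophages it ranged from -0.78 to 0.66 for Maea and -0.16 to 0.57 for Igfbp4, and for the interaction from -1.16 to 0.28 for Maea, -0.0935 to 0.65 for Igfbp4 and -16.34 to 0.31 for St14, whose value between populations in normal marrow was 0 to 10.49. Palld between populations in metastatic marrow was -5.01 without niche metastatic 3 and 2.91 without general metastatic 2.

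Libraries of the same number had r from -0.00356 to 0.0329 in their deviations from the group means. Libraries of different numbers were not compared, so this check cannot decide whether the numbers pair them. A replicate block over the 9 numbered libraries gave 117 calls for the populations in metastatic marrow, 11 of them pathway genes, 3 for metastasis in general macrophages and 0 members. Epb41 passed under this block between populations in metastatic marrow (edgeR adjusted p = 0.0480 against 0.120), as it did by DESeq2 and with library size alone. Niche normal libraries share no number with the others and entered no block. Of 288 leave-one-out values of members, 268 were kept, 3 moved and 17 reversed, and of 201 values under the other alternatives 196 were kept. For metastasis and the interaction, kept means the same direction and the same side of the threshold. Between populations, which were not tested for members, it means a move smaller than the spread of the libraries. A value there could change sign and still be kept. Maea in normal marrow, at 0.11 (log2), ranged from -0.74 to 0.71 with 1 library left out. Depth sets the floor of 0.109 to 0.243 CPM, under which Bmp2 in 11 libraries and Hgf in niche normal marrow were not detectable.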
